A study of Mus musculus with 29 samples.

Results

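The genes of NAD synthesis and nicotinamide riboside salvage were followed by name through the count tables of mouse atria. The list names Nmrk1, Nmrk2, Nampt, Nmnat1, Nmnat3, Naprt, Nadk, Nnmt, Nt5e and Slc25a51, and all 10 were present among the 55292 gene names of the tables. All 10 passed the filter on low counts in both experiments, with 65 to 4655 raw counts in a library.

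NAD carries electrons in metabolism and is consumed by sirtuins, PARP enzymes and CD38, so cells rebuild it from vitamin B3 precursors. Nampt makes nicotinamide mononucleotide from nicotinamide, and the kinases Nmrk1 and Nmrk2 make the same mononucleotide from nicotinamide riboside; the Nmnat enzymes then complete NAD. In mice Nmrk1 is widely expressed, while Nmrk2 is enriched in striated muscle and is known to be raised in failing hearts.

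The values come from polyadenylated RNA of atria of male mice, in 29 libraries of 6 groups, with every diet begun at an age of 5 weeks. NaV1.5 transgenic mice on a high-fat diet for 4 weeks gave 5 libraries (NaV1.5_HFD) and NaV1.5 mice on a regular diet gave 4 (NaV1.5_RD). Control mice gave 4 libraries on the high-fat diet (Ctrl_HFD) and 4 on the regular diet (Ctrl_RD). In a supplement experiment all mice were NaV1.5 on the high-fat diet for 4 weeks, with nicotinamide riboside in 7 libraries (NaV1.5_HFD_NR, or NR) or with vehicle in 5 (NaV1.5_HFD_vehicle). The sources used here do not give the promoter of the transgene, the cells that express it, the strain, the genotype of the controls beyond that name or the dose of nicotinamide riboside. No label ties each library to its own mouse, so the spread behind each p-value is that between these libraries and may be technical.

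Total counts ran from 13189995 to 33061018 per library. The 8 atrial cardiomyocyte markers were detected in each group, with a summed level of 26759.8 to 92605.9 counts scaled to library size (CPM) per library, and the atrial light chain Myl7 had 3039 to 12580 CPM. The 6 ventricular markers summed to 106 to 656 CPM. All diet libraries were labelled batch 1 except Ctrl_HFD replicate 4, labelled batch 2, which lay at -57.58 on the first principal component among the batch 1 libraries (-68.89 to -44.51), while the batch 2 NR libraries lay at 92.67 to 99.90. Vehicle libraries were labelled batch 3, NR replicates 1 to 5 batch 2 and NR replicates 6 and 7 batch 3. Batch 2 is thus the one label found in both experiments, in the diet experiment through this single library. Differences were taken only within an experiment, with batch in the model: Ctrl_HFD replicate 4 then carries no weight in any difference, and only the 2 NR libraries of batch 3 are weighed against the 5 vehicle libraries. The labels number neither the library called Ctrl_RD replicate 1 nor that called NaV1.5_RD replicate 4 here, so these 2 numbers are only names. A record named flag in the count tables held 0 counts in every library and gives no check of genotype.

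The promoters of the 2 riboside kinase genes are shown because Nmrk2 was the only member called for the averaged diet in the reported fit. That call was lost under several other settings. Nmrk1, its partner in the same reaction, was not called. Each is the run of 250 bases before the start site in RefSeq (build GRCm38.p6), read 5′ to 3′ on the strand of the gene, at chr10:81202038-81202287 on the minus strand for Nmrk2 and chr19:18631766-18632015 on the plus strand for Nmrk1; capitals mark TATAAA.
Nmrk2: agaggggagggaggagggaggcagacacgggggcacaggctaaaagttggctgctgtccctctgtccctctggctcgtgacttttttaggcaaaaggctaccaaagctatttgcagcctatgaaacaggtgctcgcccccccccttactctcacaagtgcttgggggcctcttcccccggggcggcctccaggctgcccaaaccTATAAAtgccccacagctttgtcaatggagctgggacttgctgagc
Nmrk1: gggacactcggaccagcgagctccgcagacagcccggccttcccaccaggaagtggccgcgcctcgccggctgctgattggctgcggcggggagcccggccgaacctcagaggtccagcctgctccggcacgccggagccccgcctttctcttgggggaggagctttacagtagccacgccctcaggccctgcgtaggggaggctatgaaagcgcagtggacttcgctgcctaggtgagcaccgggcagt
The motifs searched on both strands, in windows of 250 bases before to 50 after a start, were TATAAA (the TATA box), CACGTG (the E-box, the same on both strands) and AGGTCA (the nuclear receptor half-site). The Nmrk2 window held TATAAA, with its first base 46 before the start, and the Nmrk1 window held none of the 3. Among 32544 RefSeq promoters 13.6% held TATAAA, 7.17% CACGTG and 16.2% AGGTCA. RefSeq windows were matched for 7 of the 10 genes (9 windows). One of the 2 Nadk windows held CACGTG and the Nampt and Nmnat3 windows held AGGTCA; those of Nmnat1 and Nt5e held none of the 3. No window held 2 of the motifs, so none overlapped. These matches describe letters in the windows only.

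To rank the genes against each other, CPM was divided by the summed exon length of the gene (CPM per 1000 bases). Over the 16 libraries of batch 1 the highest level per length was that of Nampt, at 15.7 ± 2.94 CPM per 1000 bases (SD), followed by the NAD kinase gene Nadk at 14.2 ± 1.01 and the mitochondrial NAD carrier gene Slc25a51 at 11.4 ± 0.755. The ranges of Nampt and Nadk overlapped, while each Nadk value lay above each Slc25a51 value. Nmrk2 at 9.44 ± 3.90, Nmnat1 at 8.95 ± 0.859 and Naprt at 7.60 ± 1.12 CPM per 1000 bases formed a middle group whose ranges overlapped with their neighbours. Below them, with no overlap with Naprt, came Nnmt at 4.29 ± 0.927 and Nmnat3 at 3.56 ± 0.459, and then Nt5e at 2.38 ± 0.303 and Nmrk1 at 1.85 ± 0.237; neighbours among these 4 overlapped. The riboside kinase message of batch 1 atria was mostly Nmrk2, per length. Pooled over the groups of batch 1, Nmrk2 was also the most variable member, with a coefficient of variation of 41.3% on the CPM scale. Slc25a51 had 6.60% and Nadk 7.09%. The pooled figure includes differences between groups. Within groups of batch 1 Nmrk2 had 37.0% in NaV1.5_HFD, 20.8% in Ctrl_HFD and 34.4% in Ctrl_RD. In NaV1.5_RD it had 8.94%, below the 26.4% of Nampt there.

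**Figure D1:**
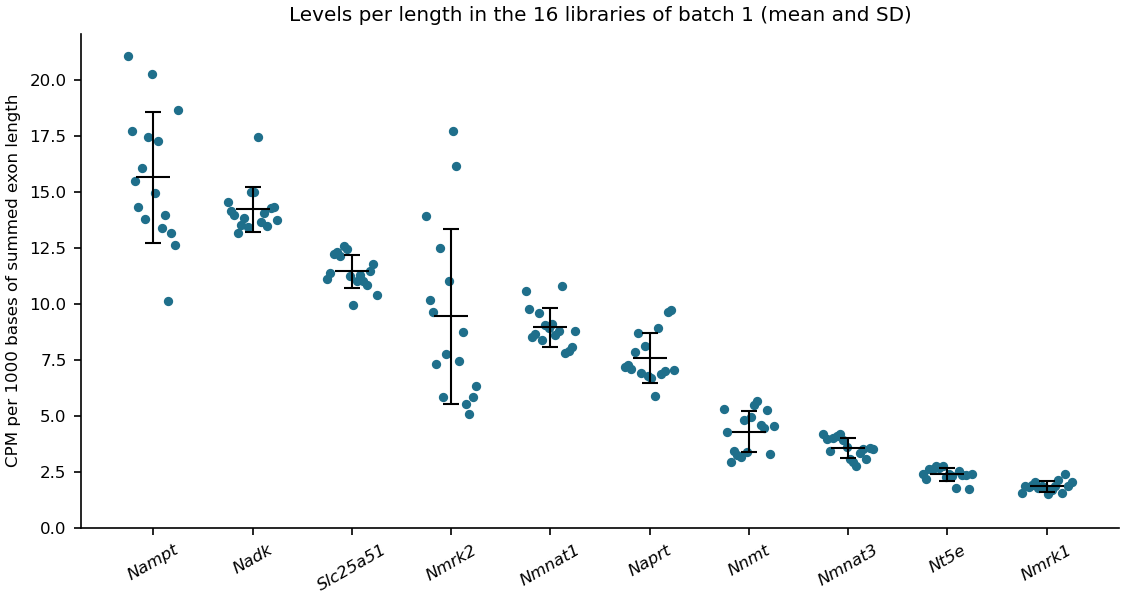
Level of each gene in CPM per 1000 bases of summed exon length (vertical axis) in the 16 libraries of batch 1; points are libraries and bars the mean and SD. Nampt (15.7) and Nadk (14.2) are highest, Nmrk1 (1.85) is lowest and Nmrk2 spreads most widely.

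The question of the diet comparison is what 4 weeks of high-fat diet does in the atria of each genotype. Nmrk2, the muscle nicotinamide riboside kinase gene (GRCm38 chromosome 10, 81198170 to 81202051, minus strand), was the only member called in the reported fit. Averaged over both genotypes it was fitted 1.70-fold higher on the high-fat diet. Nmrk2 had 20.4, 32.9, 29.9, 13.8 and 16.2 CPM in NaV1.5_HFD atria, against 10.3, 9.45, 10.8 and 11.7 CPM in NaV1.5_RD atria. Each NaV1.5_HFD value lay above each NaV1.5_RD value, and the 4 RD values lay close together while the HFD values differed by up to 2.38-fold among themselves. In control mice Nmrk2 had 25.8, 18.9 and 17.8 CPM in the batch 1 Ctrl_HFD atria and 10.1 CPM in Ctrl_HFD replicate 4, against 13.6, 23.2, 10.8 and 14.4 CPM in Ctrl_RD atria. The control groups overlapped, through Ctrl_RD replicate 2 and the batch 2 library.

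In the fit, the log2 difference of Nmrk2 for the diet averaged over both genotypes was 0.77 (SE 0.19, 95% interval 0.36 to 1.17, edgeR quasi-likelihood adjusted p = 0.0342; fold 1.70, interval 1.28 to 2.25). The batch 1 means were 22.0 ± 6.82 CPM on HFD and 13.0 ± 4.43 CPM on RD (SD, n = 8 each). It was the 1 of 10 members called in this comparison, where 4.95% of the 16168 genes tested were called in either direction and 2.16% were called higher. Within NaV1.5 mice the log2 difference was 1.10 (SE 0.26, interval 0.54 to 1.65), short of the threshold at an adjusted p of 0.0538, where 1.13% of genes were called. Within control mice it was 0.43 (SE 0.28, interval -0.16 to 1.03, adjusted p = 0.678), where 0% of genes were called; 8.49% of genes had an unadjusted p below 0.05 there, DESeq2 called 19 and limma-voom 69. The difference between the genotypes in this response, 0.67 (interval -0.15 to 1.48, adjusted p = 1.00), was not past the threshold, in a comparison where 0% of genes were called and 2.26% had an unadjusted p below 0.05; DESeq2 and limma-voom called 0 genes. As a ratio of the fold changes in NaV1.5 and control mice its interval runs from 0.901 to 2.79.

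The size of the Nmrk2 difference held while its call did not. Its adjusted p was 0.0655 without the batch term (log2 difference 0.67), which lets in Ctrl_HFD replicate 4, 0.0941 with no low-count filter, 0.176 with all 29 libraries in one fit, 0.0766 with the replicate block and 0.0696 with offsets for GC content and length. The call was also lost without any 1 of 8 libraries: NaV1.5_RD replicates 1 (adjusted p = 0.0619), 2 (0.0724) or 3 (0.0688), Ctrl_RD replicates 1 (0.0742) or 3 (0.0710), Ctrl_HFD replicates 1 (0.102) or 2 (0.0679), or NaV1.5_HFD replicate 3 (0.0591). DESeq2, which called 10% of genes, and limma-voom, which called 24.3%, both called it (adjusted p = 0.00143 and 0.00532). Within NaV1.5 mice the call was gained by edgeR with a CPM filter of 1 (adjusted p = 0.0460), where 219 of 14472 genes were called. It was gained with DESeq2 (0.000950), which called 5.25% of genes there, and with limma-voom (0.0128), which called 12.2%. With edgeR it was also gained without Ctrl_RD replicate 2 (0.0396, 132 of 16459 genes called), NaV1.5_HFD replicate 4 (0.0209, 506 of 16094) or NaV1.5_RD replicate 4 (0.0452, 1138 of 16452).

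**Figure D2:**
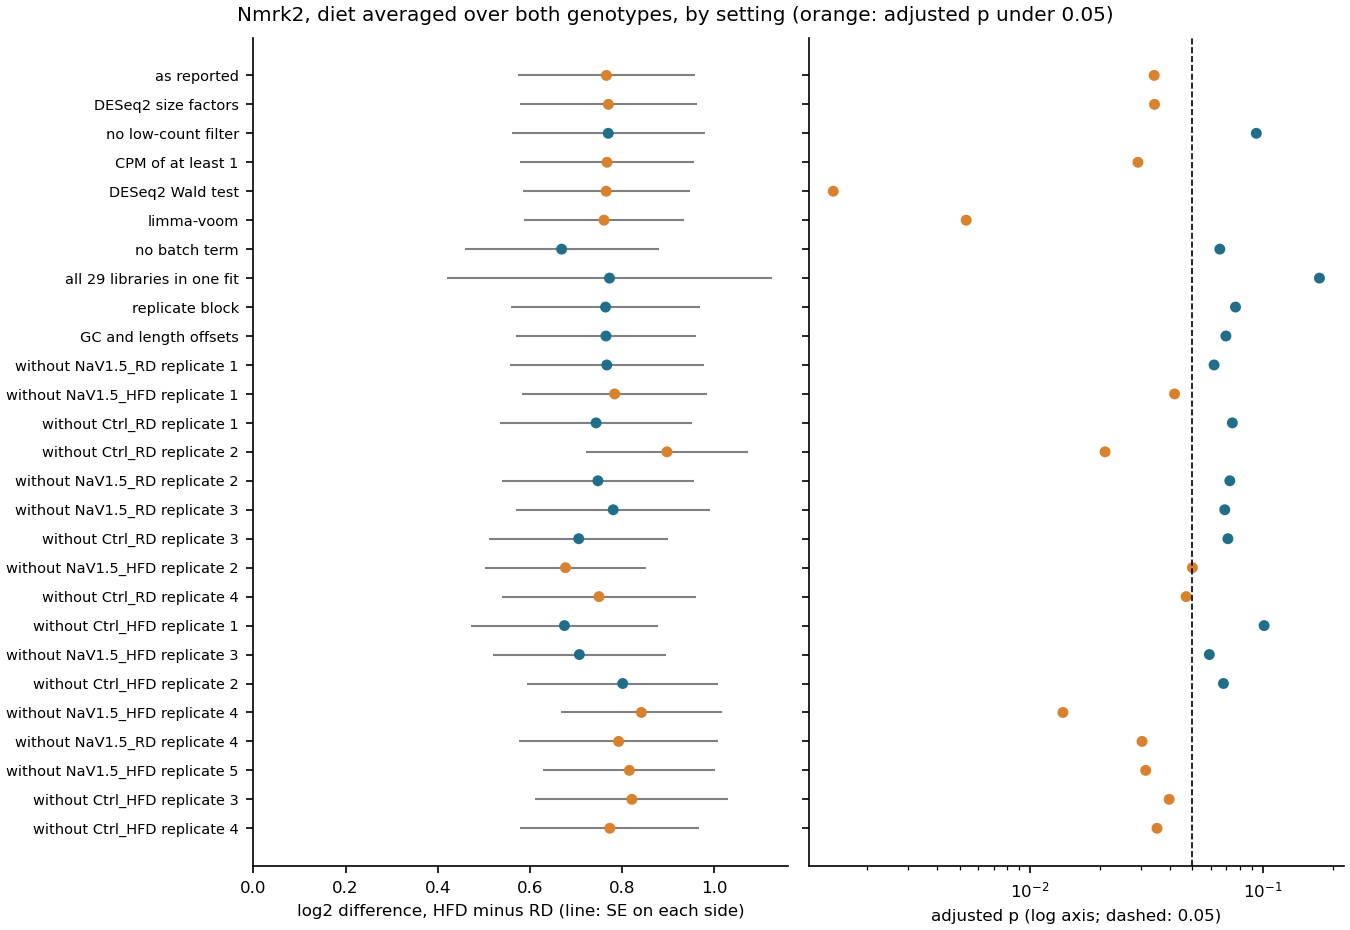
Nmrk2 for the diet averaged over both genotypes under each setting (rows, the reported one on top); left, the log2 difference of HFD minus RD with its SE to each side, right, the adjusted p on a log axis with the 0.05 threshold dashed. The log2 difference stays between 0.67 and 0.90, while the adjusted p runs from 0.00143 to 0.176.

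Other measures were read beside Nmrk2. Of its 1854 exon bases, 270 (14.6%) overlap Atcayos on the opposite strand, and counting did not use strand. Atcayos went the other way: it had 82.6 ± 10.7 CPM in NaV1.5_HFD (SD, n = 5) against 117 ± 19.7 CPM in NaV1.5_RD (n = 4), and its log2 difference averaged over both genotypes was -0.48 (SE 0.084, adjusted p = 0.00632). The 8 atrial cardiomyocyte markers summed to 71508.5 to 86922 CPM on HFD and 82723.6 to 92605.9 CPM on RD in batch 1. Within each genotype the batch 1 sums lay wholly lower on HFD. They were 71508.5 to 79420.1 CPM in NaV1.5_HFD against 82723.6 to 89305.6 CPM in NaV1.5_RD. In controls they were 81926.5 to 86922 CPM on HFD against 87502.7 to 92605.9 CPM on RD. These sums follow the markers of highest count. The median log2 difference over the 8 markers was -0.12 in NaV1.5 mice and -0.0087 in controls, against -0.014 and -0.0048 over all genes. For the averaged diet the list median was -0.060. There 1 of the 8 markers, the natriuretic peptide gene Nppa, fell (log2 difference -0.36, SE 0.068, edgeR adjusted p = 0.00998). The 9 skeletal muscle markers, of a tissue rich in Nmrk2, summed to 653 to 1003 CPM on HFD and 678 to 926 CPM on RD. The 6 ventricular markers summed to 176 to 468 CPM on HFD and 177 to 656 CPM on RD, so both sums overlapped between diets. Of the 9 skeletal muscle markers 6 passed the low-count filter, and Myh1 was at 0 in all NaV1.5_HFD libraries. How much of the skeletal muscle sum came from skeletal muscle was not tested. None of the 8 atrial markers was at 0. Of 8 tested adipocyte markers 2 fell, Plin1 (log2 difference -2.45, SE 0.60, adjusted p = 0.0305) and Retn (-1.99, SE 0.56, adjusted p = 0.0487), with a list median of -1.93. Plin1 had 0 to 0.673 CPM on HFD and 0.144 to 2.94 CPM on RD. The 10 adipocyte markers together summed to 627 to 976 CPM on HFD and 643 to 1258 CPM on RD. Their median sum was 882 CPM on HFD and 743 CPM on RD, the other way from the list median. Such a sum follows its markers of highest count and need not track adipocytes. The endothelial gene Vwf fell (log2 difference -0.60, SE 0.13, adjusted p = 0.0201), 1 of 8 in its list, and the macrophage gene Mrc1 rose (0.27, SE 0.075, adjusted p = 0.0453), 1 of 9 in its list. No marker of the other 8 lists was called for the averaged diet by edgeR. The share of counts from mitochondrial genes was 20.4 to 26.6% on HFD, with 6 of 8 libraries at 22.7% or more, and 18.7 to 21.9% on RD in batch 1. In bulk RNA of atria, a change in the number of cells of a type and a change in RNA per cell cannot be told apart, and the part of cell makeup or mitochondrial share in the Nmrk2 difference was not tested.

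Nmrk1, the widely expressed riboside kinase gene (chromosome 19, 18631950 to 18652428, plus strand), was not called with the diet. It ranged from 5.47 to 7.90 CPM in NaV1.5_HFD and from 5.76 to 8.87 CPM in NaV1.5_RD, and from 5.68 to 6.87 CPM in batch 1 Ctrl_HFD and from 6.50 to 7.57 CPM in Ctrl_RD. Its log2 difference averaged over both genotypes was -0.14 (interval -0.36 to 0.077, adjusted p = 0.441), so the interval leaves out a rise of the size fitted for Nmrk2. Per length, Nmrk2 made up 80.1 to 92.3% of the summed Nmrk1 and Nmrk2 levels in NaV1.5_HFD libraries and 67.9 to 78.0% in NaV1.5_RD libraries. The shares were 84.2 to 90.0% in batch 1 Ctrl_HFD libraries and 76.8 to 85.9% in Ctrl_RD libraries, with 75.8% in Ctrl_HFD replicate 4. These shares restate the Nmrk2 values on another scale and were not tested.

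**Figure D3:**
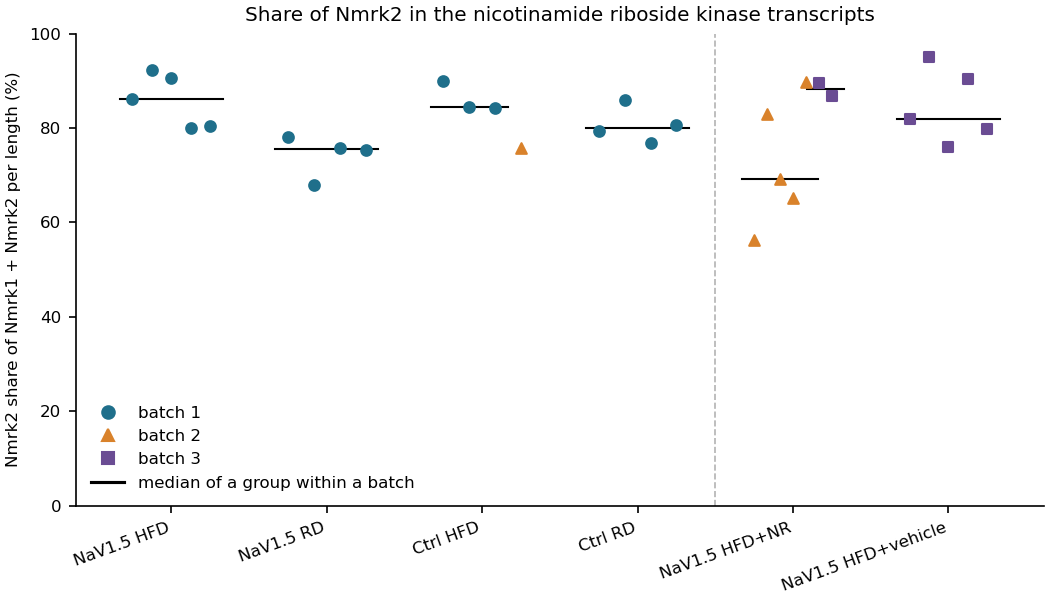
Share of Nmrk2 in the summed Nmrk1 and Nmrk2 levels per length (vertical axis, percent) in each library by group; symbols give the batch and lines the median of a group within a batch. The 5 NaV1.5_HFD libraries (80.1 to 92.3%) lie above the 4 NaV1.5_RD libraries (67.9 to 78.0%), and the NR libraries of batch 2 spread most widely (56.2 to 89.9%).

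Nampt, the rate-limiting enzyme gene of salvage from nicotinamide (chromosome 12, 32819545 to 32853349, plus strand), had its values spread too widely to separate the diets. It had 102, 75.6, 87.3, 67.6 and 70.6 CPM in NaV1.5_HFD atria, against 51.2, 66.5, 63.9 and 94.4 CPM in NaV1.5_RD atria. It had 107, 89.5 and 78.4 CPM in batch 1 Ctrl_HFD atria, against 72.5, 81.2, 69.8 and 88.2 CPM in Ctrl_RD atria. NaV1.5_RD replicate 4 lay above 4 of the 5 NaV1.5_HFD values, so the groups overlapped. The averaged log2 difference was 0.23 (SE 0.12, interval -0.018 to 0.47, adjusted p = 0.25). Among the settings tried it was called by edgeR without NaV1.5_RD replicate 4 (0.32, adjusted p = 0.0358), where 2202 of 16452 genes were called. It was also called with limma-voom (0.29, adjusted p = 0.0247), which called 24.3% of all genes.

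The Nmnat genes encode the enzymes that complete NAD by adding the adenylyl group, with Nmnat1 in the nucleus and Nmnat3 placed in mitochondria. Nmnat1 (chromosome 4, 149467572 to 149485202, minus strand) had 26.2 to 32.7 CPM in NaV1.5_HFD and 23.7 to 26.7 CPM in NaV1.5_RD, with an averaged log2 difference of 0.14 (SE 0.065, adjusted p = 0.190). Naprt, which uses nicotinic acid in the Preiss-Handler route (chromosome 15, 75890956 to 75894481, minus strand), had 13.8 to 20.9 CPM in NaV1.5_HFD and 16.4 to 22.8 CPM in NaV1.5_RD, with an averaged log2 difference of -0.20 (SE 0.095, adjusted p = 0.214). Neither passed with edgeR. Both were called with limma-voom (adjusted p = 0.0493 for Nmnat1 and 0.0421 for Naprt), which called 24.3% of all genes. Of the 2344 exon bases of Naprt, 277 (11.8%) overlap Eef1d on the same strand.

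The other members were close between diets. Nadk, which turns NAD into NADP (chromosome 4, 155562378 to 155591001, plus strand), had 54.5, 53.1 and 52.4 CPM in batch 1 Ctrl_HFD atria, against 49.4, 50.7, 51.8 and 50.4 CPM in Ctrl_RD atria. These groups did not overlap, yet the log2 difference was 0.07 (interval -0.095 to 0.24, adjusted p = 0.816), and Ctrl_HFD replicate 4 had 48.5 CPM, below them all. Nt5e, the ectonucleotidase CD73 (chromosome 9, 88327197 to 88372092, plus strand), had 20.7, 18.8 and 22.4 CPM in batch 1 Ctrl_HFD atria, against 22.4, 23.7, 23.0 and 23.8 CPM in Ctrl_RD atria, with a log2 difference of -0.18 (interval -0.44 to 0.077, adjusted p = 0.688); Ctrl_HFD replicate 4, at 22.7 CPM, lay within the Ctrl_RD range. Such separation was common, since batch 1 libraries of the 2 diets did not overlap for 10.2% of all genes in control mice and 5.86% in NaV1.5 mice. Nnmt, Nmnat3 and Slc25a51 had averaged diet differences of 0.16, -0.099 and -0.068 on the log2 scale, each with an interval that holds 0. Over the 10 members the median log2 difference was 0.0093, against -0.0088 over all genes.

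The genotype comparison asks what the NaV1.5 transgene does on each diet. Nmnat3, the gene of the mitochondrial Nmnat enzyme (chromosome 9, 98287435 to 98420438, plus strand), came nearest to a call and was fitted at 0.826-fold of the control level in NaV1.5 atria. It had 17.9, 15.3, 14.6, 13.7 and 16.6 CPM in NaV1.5_HFD atria, against 20.8, 19.9 and 17.2 CPM in batch 1 Ctrl_HFD atria, with 15.7 CPM in Ctrl_HFD replicate 4. On the regular diet it had 17.5, 15.3, 17.8 and 17.6 CPM in NaV1.5_RD atria, against 20.1, 20.4, 20.8 and 19.6 CPM in Ctrl_RD atria. On the regular diet all 4 NaV1.5 values were below all control values, and on the high-fat diet NaV1.5_HFD replicate 1 lay above the lowest batch 1 control.

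The log2 difference of Nmnat3 averaged over both diets was -0.28 (SE 0.068, interval -0.42 to -0.13, adjusted p = 0.0760), with -0.25 on RD (adjusted p = 0.769) and -0.31 on HFD (adjusted p = 0.337). No member was called for genotype by edgeR, where 0.452% of genes were called averaged over diets, 0.0124% on RD and 0.0866% on HFD; at an unadjusted p below 0.05 there were 3 members averaged over diets (11.4% of genes), 3 on RD (6.11%) and 1 on HFD (8.05%). Averaged over diets, Nmnat3 was called by DESeq2 (adjusted p = 0.0162), by limma-voom (0.0102) and by edgeR without NaV1.5_HFD replicate 1 (0.0462). DESeq2 called 1.73% of genes and limma-voom 3.14%, and edgeR without that library called 98 of 16161 genes. No other member was called for genotype by any of the 3 tools. Among the cell type markers edgeR called 1 averaged over diets, Lbh of 5 tested ventricular markers, which was higher in NaV1.5 (log2 difference 0.64). That call was kept in 8 of 17 fits with 1 library left out. The atrial cardiomyocyte markers summed to 71508.5 to 89305.6 CPM in NaV1.5 and 81926.5 to 92605.9 CPM in control libraries of batch 1. On HFD the sums were wholly lower in NaV1.5, at 71508.5 to 79420.1 CPM against 81926.5 to 86922 CPM in batch 1 controls. Ctrl_HFD replicate 4, at 75652.1 CPM, lay within the NaV1.5_HFD range. Erythroid markers on HFD summed to 932 to 3128 CPM in NaV1.5 and 612 to 824 CPM in batch 1 controls. On RD both sums overlapped between genotypes. The part of cell makeup in these differences was not tested.

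Nt5e and the mitochondrial NAD carrier gene Slc25a51 (chromosome 4, 45395923 to 45408766, minus strand) were the other members with no overlap between genotypes on the regular diet. Nt5e had 20.4, 20.2, 14.9 and 20.7 CPM in NaV1.5_RD atria, against 22.4, 23.7, 23.0 and 23.8 CPM in Ctrl_RD atria, and its log2 difference was -0.29 (SE 0.12, interval -0.53 to -0.044, adjusted p = 0.782). Slc25a51 had 59.7, 63.2, 65.0 and 57.3 CPM in NaV1.5_RD atria, against 67.8, 66.9, 69.3 and 68.7 CPM in Ctrl_RD atria, and its log2 difference was -0.15 (SE 0.069, interval -0.30 to -0.0078, adjusted p = 0.80). So on the regular diet 3 of 10 members did not overlap, each lower in NaV1.5, where 3.39% of all genes did not overlap in either direction. On the high-fat diet all 10 members overlapped, where 5.39% of all genes did not overlap in either direction. Nmrk2 had a log2 difference of -0.55 on RD (interval -1.13 to 0.035, adjusted p = 0.829) and 0.12 on HFD (interval -0.45 to 0.69, adjusted p = 0.954). The remaining members had averaged genotype differences between -0.18 for Nampt and 0.23 for Nnmt.

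**Figure D4:**
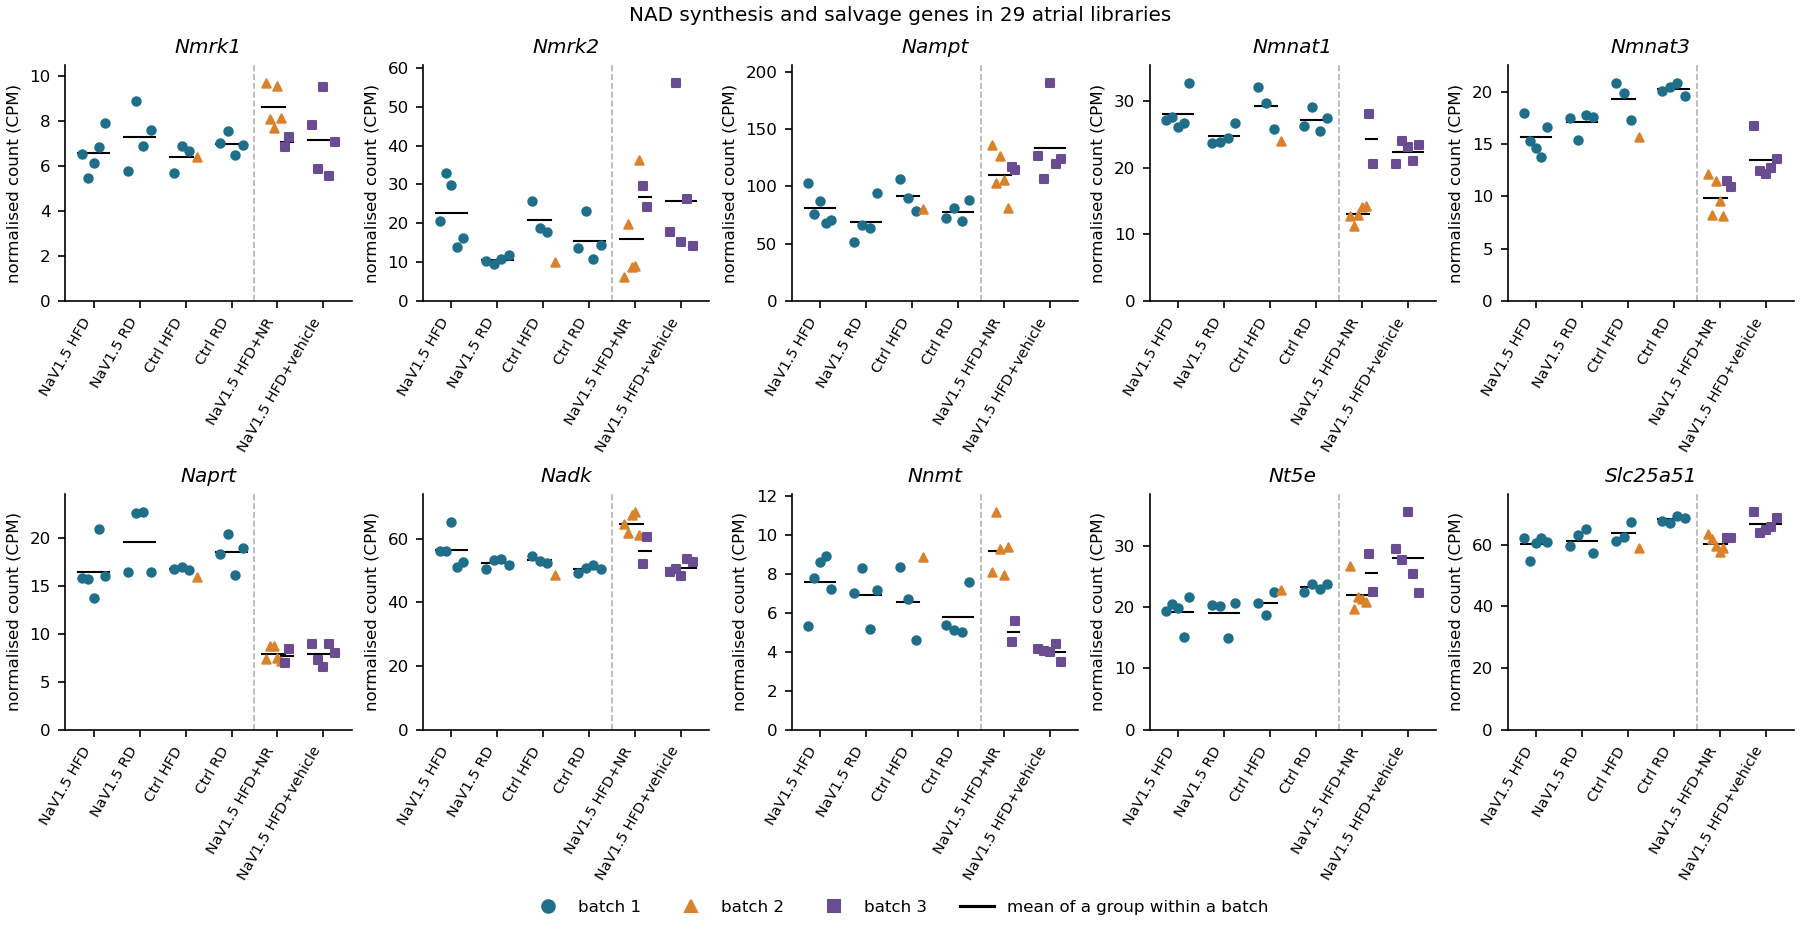
Normalised counts (CPM, vertical axes from 0) of the 10 genes in each of the 29 libraries by group; symbols give the batch, lines the mean of a group within a batch, and the dashed line parts the 2 experiments. Nmrk2 separates NaV1.5_HFD (13.8 to 32.9) from NaV1.5_RD (9.45 to 11.7), and Naprt lies between 6.59 and 8.97 in the supplement experiment.

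The supplement comparison asks whether nicotinamide riboside, the substrate of the Nmrk kinases, changed atrial expression in NaV1.5 mice on the high-fat diet. No member was called by edgeR, where 0.425% of 16482 genes (70) were called; without NR replicate 7, 1 of the 2 NR libraries that carry the comparison, 1 gene was called. At an unadjusted p below 0.05 there were 0 members, against 11.1% of genes, and DESeq2 and limma-voom called 0 members. With 2 NR libraries in the batch that vehicle shares, the 95% half-widths ran from 0.14 for Slc25a51 to 1.69 for Nmrk2 on the log2 scale.

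Nnmt, which methylates nicotinamide and so removes it from salvage (chromosome 9, 48591877 to 48605153, minus strand), had 4.48 and 5.58 CPM in the NR libraries of batch 3, against 4.14, 4.06, 3.97, 4.38 and 3.46 CPM in vehicle. Both NR values lay above all vehicle values, and the log2 difference was 0.35 (SE 0.17, interval -0.0013 to 0.70, adjusted p = 0.451). The NR libraries of batch 2 had 8.10, 11.2, 9.27, 7.93 and 9.37 CPM. Those 5 libraries alone against vehicle gave 1.18 (adjusted p = 8.79e-07), a value in which batch and treatment cannot be told apart; 60.4% of all genes were called that way. The atrial cardiomyocyte markers summed to 26759.8 to 32840.3 CPM in the NR libraries of batch 2 and 64434.4 to 70190.9 CPM in those of batch 3, against 59057.8 to 73730.1 CPM in vehicle. The fibroblast markers, of a cell type that expresses Nnmt, summed to 6574.95 and 7946.63 CPM with NR in batch 3, against 6107.97 to 7122 CPM with vehicle. Sums of 3 other marker lists lay wholly higher with NR in batch 3, as Nnmt did. Adipocyte markers summed to 410 and 431 CPM with NR, against 344 to 399 CPM with vehicle (median log2 difference 2.28 over 8 tested), macrophage markers to 900 and 1057 CPM, against 684 to 836 CPM, and skeletal muscle markers to 710 and 786 CPM, against 456 to 654 CPM. Such sums follow the markers of highest count and need not track the cells they are named for. None of these markers was called, and their part in the Nnmt values was not tested.

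Nmnat3 had 11.5 and 10.8 CPM in the NR libraries of batch 3, against 16.7, 12.4, 12.1, 12.7 and 13.6 CPM in vehicle, with a log2 difference of -0.26 (SE 0.17, interval -0.61 to 0.093, adjusted p = 0.636). Slc25a51 had 62.2 and 62.1 CPM with NR in batch 3, against 70.7, 63.7, 64.9, 65.7 and 68.8 CPM with vehicle, with a log2 difference of -0.083 (SE 0.065, adjusted p = 0.713). Thus 3 of 10 members did not overlap within batch 3, where 14% of all genes did not.

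Nmrk2 itself could not be resolved here. It had 29.5 and 24.2 CPM in the NR libraries of batch 3 and 6.27, 19.9, 8.68, 9.03 and 36.3 CPM in those of batch 2, against 17.7, 56.2, 15.2, 26.1 and 14.0 CPM in vehicle. Vehicle replicate 2 held 56.2 CPM, against 26.1 CPM in the next vehicle library, and the 2 NR values of batch 3 lay inside the vehicle range. The log2 difference was 0.062 (SE 0.75, interval -1.62 to 1.75, adjusted p = 0.987), and 0.57 without vehicle replicate 2. Nampt, at 117 and 114 CPM with NR in batch 3 against 107 to 190.3 CPM with vehicle, had a log2 difference of -0.18 (interval -0.68 to 0.31, adjusted p = 0.837).

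The sign of the Nmnat1 difference changed with the NR libraries used. It had 28.0 and 20.5 CPM in the NR libraries of batch 3 and 11.2 to 14.3 CPM in those of batch 2, against 20.5 to 24.0 CPM in vehicle. Within batch 3 the log2 difference was 0.13 (interval -0.12 to 0.39) and -0.089 without NR replicate 6. The NR libraries of batch 2 against the vehicle libraries of batch 3 gave -0.80. Batch 2 holds no vehicle library, so batch and NR cannot be told apart in that value, and 60.4% of all genes were called that way. Nmrk1, Naprt, Nadk and Nt5e had log2 differences of 0.010, -0.030, 0.16 and -0.12 with intervals that hold 0.

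**Figure D5:**
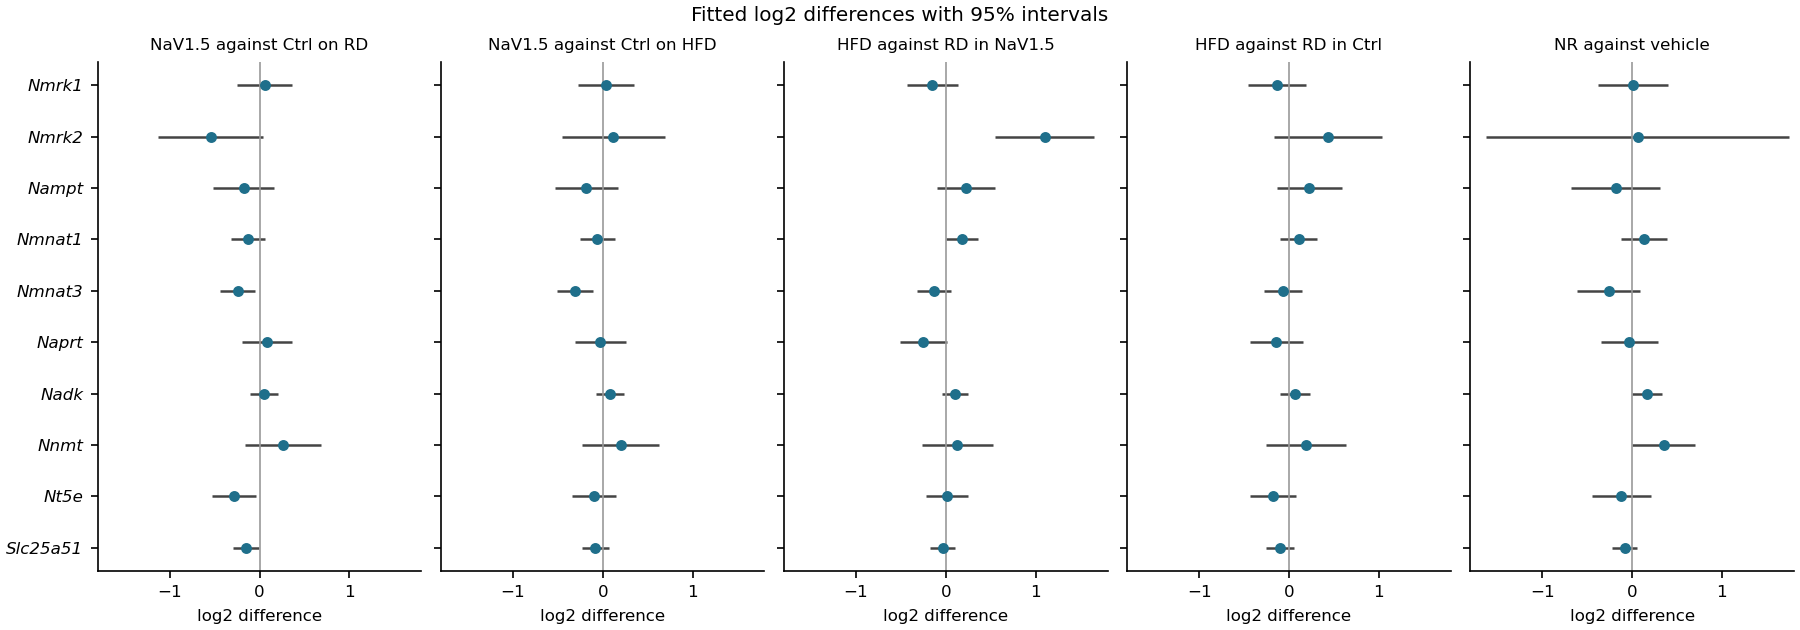
Fitted log2 differences (points) with 95% intervals (lines) of the 10 genes in 5 comparisons, named above each panel as first group against second. Nmrk2 for HFD against RD in NaV1.5 (1.10) lies farthest from 0, and its NR interval (-1.62 to 1.75) is the widest.

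The rest of the pathway was read from lists of other genes, which were drawn up with earlier results of these data known. Of 15 other NAD synthesis genes, among them the kynurenine route and the mitochondrial kinase Nadk2, 9 were tested and none was called by edgeR in any of the 8 comparisons; their median log2 difference for the averaged diet was -0.067, against -0.0088 over all genes. The smallest p for the averaged diet belonged to the kynurenine aminotransferase gene Kyat1 at -0.17 (SE 0.067, adjusted p = 0.122), for genotype to Afmid at -0.38 (SE 0.13, adjusted p = 0.245), and for NR to Nadk2 at -0.34 (SE 0.17, adjusted p = 0.509). Of 17 genes for uptake and turnover of the riboside and the mononucleotide, 15 were tested in the diet experiment and 16 in the supplement experiment, and none was called. Ada, adenosine deaminase, had an averaged diet difference of 0.49 (SE 0.22, adjusted p = 0.195). The 6 genes of nicotinamide methylation were all tested and none was called.

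Genes that consume NAD or pass its electrons on gave 3 calls among 25 genes, all for the averaged diet, where 4.95% of all genes were called. Of 15 tested NAD consumers, 1 rose, the poly-ADP-ribosyltransferase gene Tnks2, by 0.21 (SE 0.054, adjusted p = 0.0342). Of 10 genes of NAD and NADP redox, the NADH pyrophosphatase gene Nudt12 rose by 0.36 (SE 0.10, adjusted p = 0.0474). The mitochondrial NADP isocitrate dehydrogenase gene Idh2 fell, with 882 ± 81.0 CPM on HFD and 1071 ± 83.6 CPM on RD in batch 1 (SD, n = 8 each) and a log2 difference of -0.29 (SE 0.069, adjusted p = 0.0236). Under NR the NAD glycohydrolase gene Cd38 had the smallest p of the consumers, at -0.28 (SE 0.092, adjusted p = 0.226), and was not called.

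Clock genes and the AMPK subunits were included because Nampt is a known output of the clock in mice and AMPK is linked to NAD supply. On the averaged diet, where 2.78% of all genes were called lower, 3 of 17 clock genes fell: the clock repressor gene Ciart by 0.68 (SE 0.11, adjusted p = 0.00336), Bhlhe40 by 0.40 (SE 0.10, adjusted p = 0.0309) and the output factor Dbp by 0.35 (SE 0.087, adjusted p = 0.0289), all on the log2 scale. Ciart had 16.1 ± 2.11 CPM in NaV1.5_HFD (SD, n = 5) and 32.0 ± 5.85 CPM in NaV1.5_RD (n = 4), with no overlap; within NaV1.5 mice, where 1.13% of genes were called, it fell by 1.00 (SE 0.14, adjusted p = 0.00833) and Dbp fell by 0.50 (SE 0.11, adjusted p = 0.0409). Of 13 genes of the PPAR and AMPK list, 2 fell on the averaged diet (2.78% of all genes), the AMPK subunit genes Prkag2 by 0.45 (SE 0.080, adjusted p = 0.00777) and Prkab1 by 0.39 (SE 0.075, adjusted p = 0.0116), and within NaV1.5 mice Prkag2 fell by 0.49 (SE 0.11, adjusted p = 0.0317). For genotype averaged over diets, where 0.452% of genes were called, the clock output factor Hlf fell by 0.44 (SE 0.090, adjusted p = 0.0303) and the AMPK subunit gene Prkab2 fell by 0.34 (SE 0.075, adjusted p = 0.0482). The averaged diet calls of Ciart, Prkag2 and Prkab1 held with each of 17 libraries left out and under all 9 other settings, as did that of Ciart within NaV1.5 mice. The other calls of the 7 pathway lists were each lost without at least 5 of the 17 libraries in turn. No gene of these 7 lists was called under NR by edgeR, among them the riboside transporter gene Slc29a1 at 0.20 (SE 0.088, adjusted p = 0.412). The sources used here do not state the hour of tissue collection.

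Levels of several members were set apart between experiments. Naprt averaged 7.68 ± 0.978 CPM in NR libraries of batch 3 (n = 2) and 7.95 ± 1.04 CPM in vehicle (n = 5), and 16.5 ± 2.66 CPM in the NaV1.5_HFD libraries of the diet experiment (SD, n = 5). Nampt stood higher in the supplement experiment, at 116 ± 1.88 CPM with NR in batch 3 and 133 ± 32.8 CPM with vehicle, and 80.7 ± 14.3 CPM in NaV1.5_HFD. No test was made across the experiments, which share 1 batch label through 1 diet library.

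Genes whose pattern ran closest to each member were sought over 28 libraries among 14306 genes, as the Pearson correlation of log2 CPM after each group's mean within its batch was taken off. The 3 genes nearest to Nmrk2 were Cox19 (r = 0.84, Spearman rho = 0.81), Gm11627 (r = 0.84) and Golga4 (r = 0.83); without the 2 libraries farthest out these were 0.72, 0.71 and 0.71. Nampt ran with Txndc16 (r = 0.88), Mturn (0.87) and Cytl1 (0.86), Nmnat1 with Csnk2a1 (0.82), Nmd3 (0.75) and Uckl1 (0.72), and Slc25a51 with Clptm1 (0.83), Ap2a2 (0.83) and the muscle glycogen phosphorylase gene Pygm (0.80). Nmrk1 was nearest to Gpr155 (0.74), Nrg4 (0.74) and Slc38a9 (0.73), Nmnat3 to Arrdc3 (0.77), Elp3 (0.76) and Antxr2 (0.75), and Nnmt to Emp3 (0.76), Efcab7 (0.73) and Arl11 (0.73). Nt5e was nearest to Ankhd1 (0.74), Ptgr2 (0.72) and Sesn1 (0.69), Naprt to Samd1 (0.71), Dhrs13 (0.69) and Rbm15b (0.68), and Nadk to 6230400D17Rik (0.66), Faah (0.62) and Kansl1 (0.62). Between the members themselves r ran from -0.60 (Naprt with Nt5e) to 0.44 (Naprt with Slc25a51), and Nmrk1 with Nmrk2 had -0.49. These are descriptions of libraries that share depth, RNA quality and base composition, and the likeness was chosen as the highest among many genes.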

How the data were processed

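Poly-A selected RNA of atria was prepared with a stranded TruSeq kit, per the labels. The authors deposited counts, unscaled, of the read pairs that featureCounts 2.0.1 gave to each gene name without use of strand, per the file headers; FastQC 0.11.7, STAR 2.7.6a and builds GRCm38 and mm10 are named in the submitters' processing notes. Depth was 13189995 to 33061018 counts per library. No column was left without a sample.

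Genes were tested with edgeR 4.0.16 in R 4.3.3 (2-sided quasi-likelihood test with robust dispersions, after TMM scaling and the filterByExpr rule). Benjamini-Hochberg adjustment ran over all genes kept, with a threshold of 0.05. The 4 diet groups formed one fit and NR with vehicle another, each with group and batch. The SE is the absolute log2 difference divided by the square root of F, and intervals are 95%. CPM were TMM-scaled over all 29 libraries. Other tools were DESeq2 1.42.0, limma 3.58.1, Python 3.11.15 and matplotlib 3.10.9. The fitting code was tested on simulated data. Exon overlaps were computed from the exon records of the count tables, and GC content from GENCODE M21 transcripts (98.3% of genes in the diet fit and 98.4% in the NR fit had a value).

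The members and lists were chosen with earlier results of these data known. Named genes were the 10 members, each gene of the other lists past the threshold or up to 2 of smallest p, and the 3 genes most correlated with each member. Nppa, Plin1, Retn, Vwf, Mrc1, Lbh, Atcayos and Eef1d were named after their values or overlaps were seen. Alternatives were DESeq2 size factors, no filter, a filter of 1 CPM, no batch term, all 29 libraries together, NR of batch 2 or batch 3 alone, the replicate number as a block, DESeq2, limma-voom with sample weights, and leaving out each library in turn. Offsets for GC content and length were added after the data were seen.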

Additional observations from a re-analysis of the deposited data

Results flagged for a closer look

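In 60 tests (10 genes in 6 groups of 4 to 7 libraries), 7 held a single value set far apart from the others by Dixon's test at the 95% level, where chance gives about 1 in 20. Nmrk2 was 56.2 CPM in vehicle replicate 2, against 14.0 to 26.1 CPM in the other vehicle libraries, and Nampt was 190.3 CPM in vehicle replicate 3, against 107 to 126 CPM. Nmnat1 was 32.7 CPM in NaV1.5_HFD replicate 5, against 26.2 to 27.6 CPM in the rest of that group. Slc25a51 was lowest in NaV1.5_HFD replicate 2, at 54.8 CPM against 60.6 to 62.2 CPM. In NaV1.5_RD, Nmnat3 was lowest in replicate 2 (15.3 CPM against 17.5 to 17.8 CPM) and Nt5e was lowest in replicate 3 (14.9 CPM against 20.2 to 20.7 CPM). Nnmt was 7.55 CPM in Ctrl_RD replicate 4, against 5.00 to 5.37 CPM in the other Ctrl_RD libraries.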

How the results depend on the processing

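For genotype on each diet, the diet in control mice and the interaction, 0 members were called under every setting run, and leaving out a library kept them at 0. For the diet in NaV1.5 mice 1 member instead of 0 was called with a CPM filter of 1, DESeq2 or limma-voom, and 0 to 1 with a library left out. In that order these settings called 219 of 14472, 849 of 16168 and 1970 of 16168 genes. For genotype averaged over diets 1 instead of 0 was called with DESeq2 (1.73% of all genes) or limma-voom (3.14%), and 0 to 1 with a library left out. For the diet averaged over genotypes 1 was called, where 4.95% of all genes were. With no low-count filter, no batch term, all 29 libraries in one fit, the replicate block or GC and length offsets 0 were called. With limma-voom 4 were called, where 24.3% of all genes were, and with a library left out 0 to 2 were called. For NR 0 were called, and leaving out a library kept 0. With no batch term 3 were called, where 4392 of 16482 genes were. With NR of batch 2 alone 6 were called, where 9851 of 16310 genes were. With the replicate block, which also uses batch 2 NR libraries, 7 were called, where 9704 of 16310 genes were. Nmnat1 under NR had 0.13 as reported, -0.80 with batch 2 alone and -0.81 with the block. In the settings with batch 2 NR libraries alone or the block, batch and NR cannot be told apart. Causes were not tested. Same-numbered libraries of the diet experiment did not deviate together (r -0.138 to 0.152 over 18 pairs). In the supplement r was -0.065 to 0.143 over 5 pairs. Deviations there were taken from a group mean over both NR batches, so these values cannot show whether libraries were paired. The block is not read as a paired analysis. In the diet experiment it leaves out the 2 libraries without a number. Number, batch and NR could not be fitted together. Counts over all genes moved as follows. The diet in NaV1.5 mice gave 182, against 849 with DESeq2, 1970 with limma-voom, 732 with all libraries, 27 with the block and 36 with offsets. The averaged diet gave 800, against 1617, 3935, 1546, 305 and 219 in the same order. Averaged genotype gave 73, against 280 with DESeq2, 507 with limma-voom, 138 with no filter and 36 with the block. NR gave 70, against 254 with DESeq2, 4392 with no batch term, 140 with no filter, 27 with all libraries, 18 with batch 3 alone and 12 with offsets. With the block NR gave 9704, with batch 2 alone 9851 and with limma-voom 37. Genotype on RD gave 2, against 27 with DESeq2, 13 with limma-voom, 10 with no filter and 1 with the block. Genotype on HFD gave 14, against 90 with DESeq2, 126 with limma-voom, 43 with no filter, 31 with no batch term, 9 with all libraries and 8 with the block. The diet in control mice gave 0, against 19 with DESeq2, 69 with limma-voom, 5 with no filter and 1 with no batch term. Leaving out 1 library moved these counts over 1.5 times for 10 of 17 libraries in the diet in NaV1.5 mice (4 without NaV1.5_RD replicate 3 to 1138 without NaV1.5_RD replicate 4), 12 of 17 in the averaged diet (173 without Ctrl_HFD replicate 2 to 2202 without NaV1.5_RD replicate 4) and 6 of 17 in averaged genotype (40 without Ctrl_HFD replicate 2 to 129 without NaV1.5_RD replicate 4). It did so for 8 of 17 in genotype on HFD (2 without Ctrl_HFD replicates 1 or 3 to 32 without NaV1.5_RD replicate 4), 3 of 17 in genotype on RD (1 to 5) and 6 of 12 in NR (1 without NR replicate 7 to 66 without NR replicate 6). The diet in control mice stayed at 0. Of 2050 values recomputed, 1940 kept their direction and side of the threshold. Only Nmrk2 for the averaged diet was called as reported, so nearly all of these were not called in either fit. The 13 values that lost a call were all of Nmrk2 for the averaged diet.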
